A study of Mus musculus with 39 samples.

Results

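Chromatin remodellers and histone modifiers were defined here by gene symbol, as the protein-coding mouse genes of the Smarc, Arid1 to Arid5, Chd1 to Chd9, Kdm1 to Kdm8, Kmt2 and Kmt5, Ezh, Hdac, Dnmt and Tet families. This gave 80 genes of 21938 protein-coding genes on the nuclear chromosomes. A binding peak belonged to the gene whose transcription start site was nearest. Of 20809 nuclear consensus peaks of NOTCH and RBPJ, 139 were nearest to 47 of the 80 genes, and 33 genes had no peak.

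The peaks come from Targeted DamID (TaDa) in the embryonic mouse cortex, in which a protein of interest carries a Dam methylase that marks GATC sites close to where it sits on DNA. Plasmids were electroporated in utero at E13.5 and the cortex was dissected at E14.5, with expression driven by a Hes5 promoter in radial glial cells (RGCs) and by a Tα1 promoter in intermediate progenitors (IPCs). The RBPJ lists rest on 3 samples of RGCs and 3 of IPCs carrying human RBPJ1, the RGC Notch list on 2 samples with mouse NICD and 2 with mouse NdECD, and the IPC Notch list on 4 samples with NICD. The controls were samples with Dam alone, 5 for RGCs and 4 for IPCs, and each set served both lists of its cell type. All fusions were expressed from plasmids, which for IPCs means ectopic expression. NICD is the intracellular domain of NOTCH, NdECD a form without the extracellular domain. The labels give no strain. The electroporated region was dissected whole, and the promoter alone set the cell type. Each list is 1 pooled set of positions on mm10 (GRCm38), so no value of a sample, no peak height and no sequencing depth could be read, and no marker gene could be measured to check the cell types. A consensus peak is the merged stretch of overlapping peaks of the 4 lists, and it carries the number of 1 of 8 k-means clusters.

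Chromatin remodellers use ATP to slide, evict or exchange nucleosomes, and histone modifiers add or remove the methyl and acetyl groups that other proteins read. DNA methyltransferases and Tet enzymes set and oxidise methyl groups on cytosine. In the cortex several of these genes are known for roles in progenitor proliferation and neuron production, and mutations in ARID1B, CHD2, CHD7, CHD8 and KMT2D cause human neurodevelopmental disorders. RBPJ is the DNA-binding partner of the cleaved NOTCH receptor, and without NICD it can bind corepressors that include histone deacetylases and demethylases.

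The sites called in the largest number of lists are shown first by their sequence, since they carry the overlap of proteins and cell types described further on. No consensus peak of the 80 genes was called in all 4 lists, and 6 were called in 3 lists, near Arid1a, Arid1b, Tet3, Kmt2c, Hdac9 and Smarcd3. For these peaks the stretch common to all 3 lists was searched for TTCCCA, the core of the RBPJ consensus, or its complement TGGGAA. The windows of 200 bases that held the most words and touched no annotated exon are given below for the first 4, with the window of the Kmt2d peak, which was called in 2 lists. Each reads 5′ to 3′ on the plus strand of GRCm38, with the words in capitals. The common stretches at Hdac9 and Smarcd3 had no exon-free window with such a word.
Arid1a, intron, chr4:133729714-133729913: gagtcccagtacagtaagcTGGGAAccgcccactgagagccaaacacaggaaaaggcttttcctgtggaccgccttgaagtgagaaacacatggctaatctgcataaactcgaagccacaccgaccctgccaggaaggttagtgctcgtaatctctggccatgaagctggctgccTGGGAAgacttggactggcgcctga
Arid1b, intron, chr17:5007418-5007617: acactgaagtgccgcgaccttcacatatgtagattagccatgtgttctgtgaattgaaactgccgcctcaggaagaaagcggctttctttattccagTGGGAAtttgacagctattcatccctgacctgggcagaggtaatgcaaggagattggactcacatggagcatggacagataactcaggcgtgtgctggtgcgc
Tet3, intron, chr6:83427807-83428006: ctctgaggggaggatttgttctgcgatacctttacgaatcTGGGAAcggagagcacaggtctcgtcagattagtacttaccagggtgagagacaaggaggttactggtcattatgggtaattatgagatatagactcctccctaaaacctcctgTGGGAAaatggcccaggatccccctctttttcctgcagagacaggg
Kmt2c, upstream, chr5:25499982-25500181: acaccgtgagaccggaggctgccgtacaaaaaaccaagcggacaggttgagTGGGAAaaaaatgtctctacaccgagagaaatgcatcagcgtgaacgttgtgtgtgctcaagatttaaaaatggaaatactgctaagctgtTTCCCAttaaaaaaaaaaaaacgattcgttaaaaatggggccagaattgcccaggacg
Kmt2d, intron, chr15:98868435-98868634: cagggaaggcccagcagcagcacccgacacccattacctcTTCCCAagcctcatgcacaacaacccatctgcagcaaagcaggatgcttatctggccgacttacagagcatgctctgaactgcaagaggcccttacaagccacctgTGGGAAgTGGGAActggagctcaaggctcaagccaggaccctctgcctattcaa
The Tet3 window holds 1 GATC site and the other 4 hold 0. The words occur in most peaks of this size and a match does not show a bound site.

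NOTCH or RBPJ peaks lay nearest to 58.8% of the 80 genes (Wilson 95% interval 47.8 to 68.9, counting error over genes only), against 39.7% of all protein-coding genes. In RGCs, RBPJ peaks were assigned to 43 of the 80 genes (53.8%, interval 42.9 to 64.3), against a background of 31.7%. RGC Notch peaks were assigned to 19 genes (23.8%, 15.8 to 34.1; background 11.7%). IPC RBPJ peaks were also assigned to 19 genes, against a background of 16.4%, and IPC Notch peaks to 11 genes (13.8%, 7.85 to 23) against 6.98%. The background share lay below the interval in every list but IPC RBPJ, where the interval from 15.8 to 34.1 included it. No test was made of these differences.

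**Figure D1:**
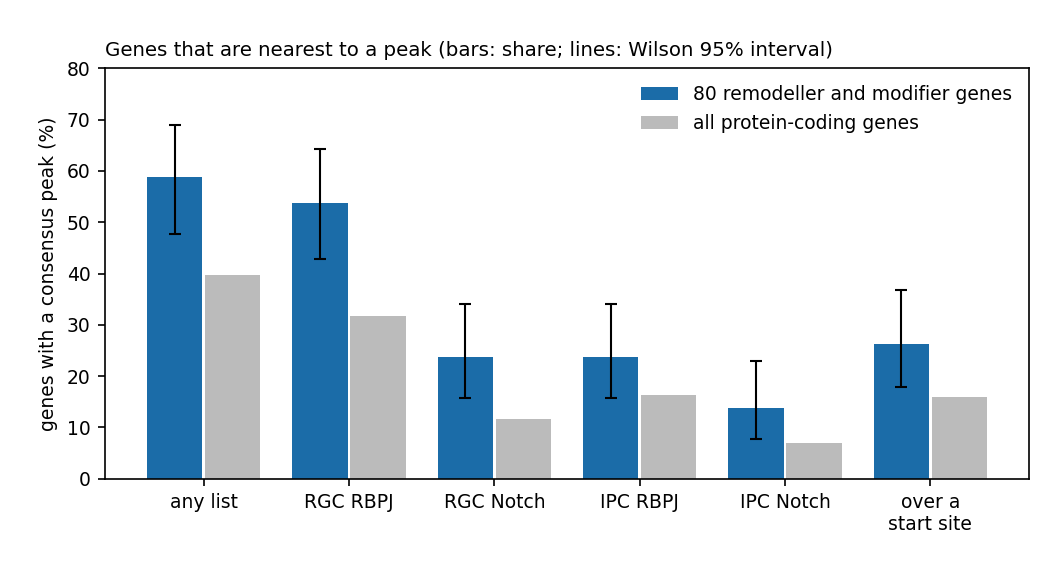
Share of genes (y axis, %) that were nearest to at least 1 consensus peak, for any list, for each of the 4 lists, and for peaks that cover a start site (x axis). Blue bars are the 80 remodeller and modifier genes with Wilson 95% intervals and grey bars all 21938 protein-coding genes. The blue bar is above the grey bar in each of the 6 pairs, by the widest margin for RGC RBPJ (53.8% against 31.7%).

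The 80 genes also had more sequence in which a peak could be assigned to them. The stretch of genome nearest to the start sites of a gene had a median of 83.8 kb for the 80 genes and 45.1 kb for all protein-coding genes. Per Mb of such sequence the 80 genes had 10.7 consensus peaks and all genes had 7.74. Among genes with a stretch of 50 to 100 kb, 14 of 26 remodeller and modifier genes had a peak (53.8%), against 42.6% of all genes of this class. Between 20 and 50 kb the shares were 42.9% (6 of 14) and 26.8%. Between 100 and 200 kb the shares were 61.5% (8 of 13) and 62.7%. Above 200 kb they were 94.7% (18 of 19) and 80.1%, and below 20 kb 12.5% (1 of 8) and 16.9%. The share of the 80 genes was higher in 3 of the 5 classes of stretch and lower in 2, and the part of this length in the gene shares was not tested.

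**Figure D2:**
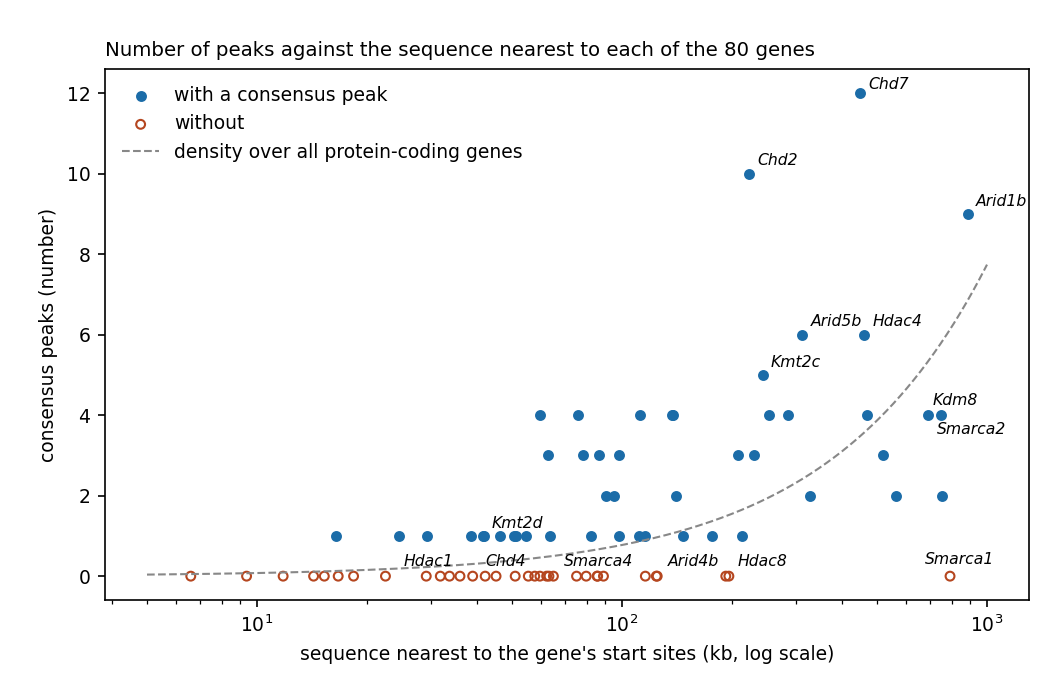
Number of consensus peaks (y axis) against the length of sequence nearest to the start sites of the gene (x axis, kb, log scale) for the 80 genes. Filled points are the 47 genes with a peak and open points the 33 without, and the dashed line is 7.74 peaks per Mb, the density over all protein-coding genes. Chd7 (12 peaks) and Chd2 (10) stand farthest above the line, and Smarca1 has 0 peaks in 792 kb.

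Most genes with a peak had few: 18 had 1 peak, 6 had 2 and 7 had 3. A further 16 genes, 20% of the 80, had 4 or more, against 6.66% of all protein-coding genes. The 3 genes with the most were Chd7 with 12, Chd2 with 10 and Arid1b with 9. Their stretches of nearest sequence were 449.2, 223.3 and 884.4 kb, that of Arid1b being the longest of the 80 genes. Peaks of all 4 lists, at 1 or more places, were found near 6 genes (7.5%, interval 3.48 to 15.4; background 2.55%), namely Arid1a, Arid1b, Chd7, Hdac9, Smarcd3 and Tet3. All 19 genes with an IPC RBPJ peak and all 11 with an IPC Notch peak also had an RGC RBPJ peak. Over all genes these shares were 68.9% and 84.5%. An IPC peak with no RGC peak was seen at 0 of the 80 genes, which allows a share of up to 3.75% when 3 counts are taken as the limit of a count of 0, against 5.42% of all genes. By peak, 19.4% of the 139 (13.7 to 26.8) were called in IPC lists only, against 22.4% of all consensus peaks. The part of the number of peaks per gene in these gene shares was not tested. RGC RBPJ peaks and no others were assigned to 18 genes (22.5%, 14.7 to 32.8; background 15.2%). RGC Notch peaks and no others were assigned to 4 genes, Ezh2, Hdac2, Smarcc1 and Smarcc2 (5%, 1.96 to 12.2; background 2.10%).

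**Figure D3:**
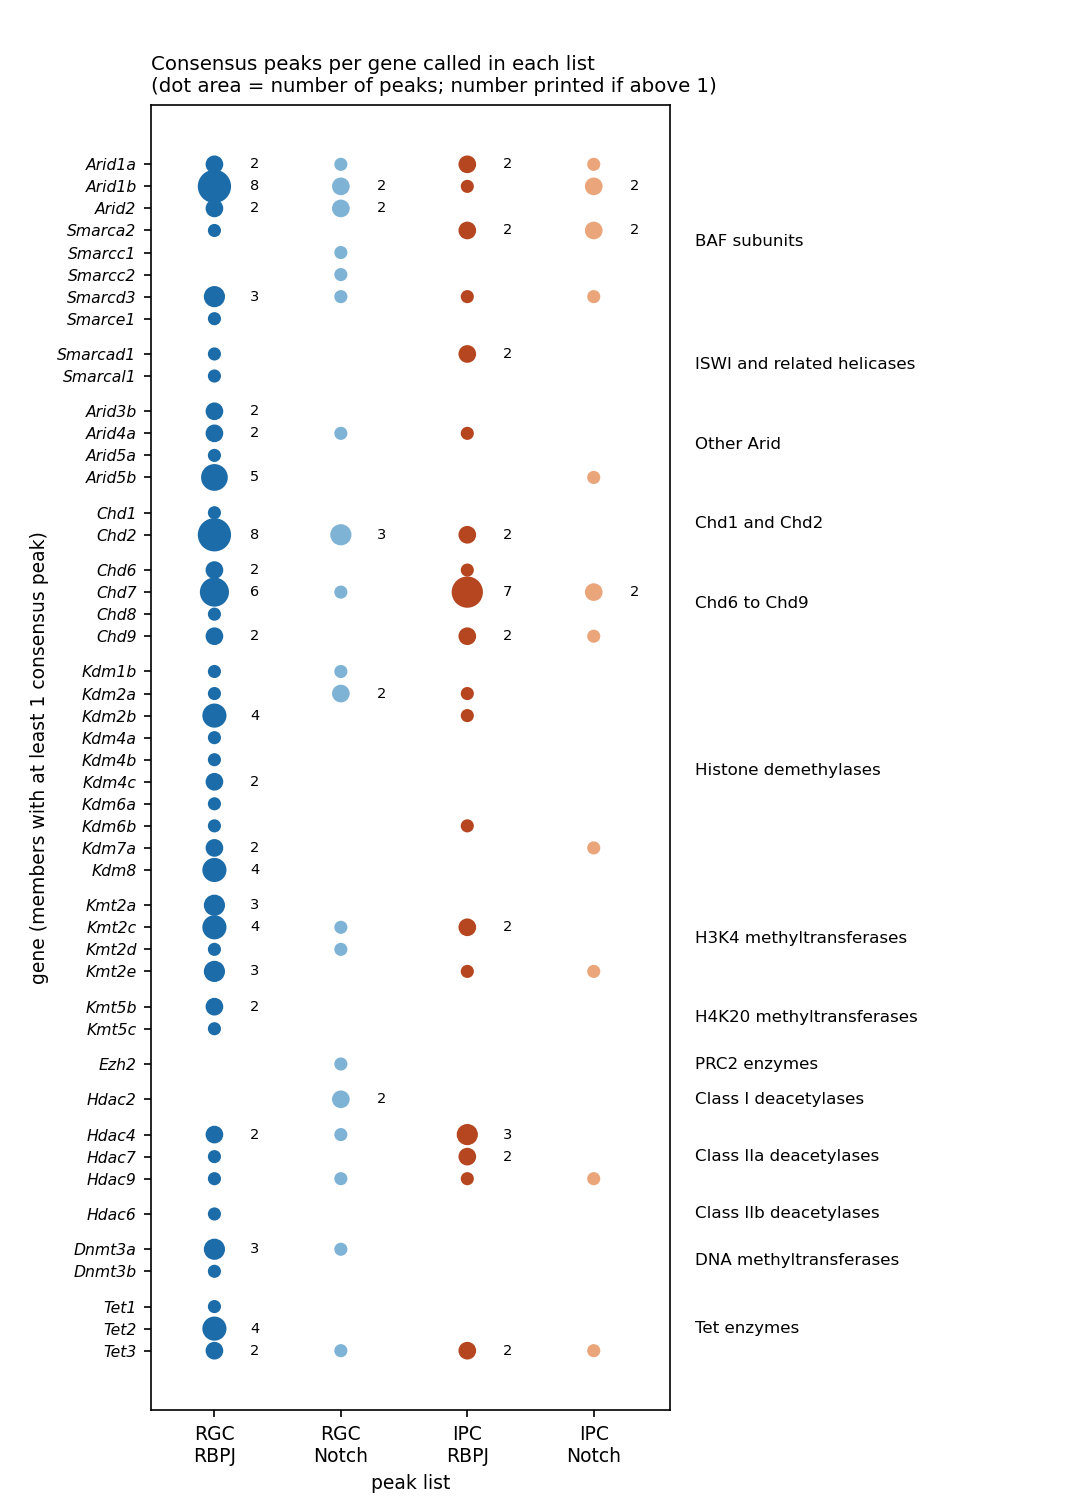
Consensus peaks of the 47 genes with at least 1 peak (y axis, grouped by role) called in each of the 4 lists (x axis). The area of a dot is the number of peaks, printed where it is above 1. The RGC RBPJ column has a dot for 43 genes, whereas Ezh2, Hdac2, Smarcc1 and Smarcc2 have dots in the RGC Notch column only.

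Of 12 genes for subunits of the BAF (SWI/SNF) remodelling complex, 8 had a peak, 28 peaks in all, against 39.7% of all protein-coding genes. The density was 11.8 peaks per Mb, against 7.74 over all genes. Arid1b (ENSMUSG00000069729, chromosome 17 from 4994332 to 5347656), which encodes a DNA-binding subunit, had 9 peaks in a stretch of 884.4 kb. In RGCs RBPJ was found at 8 of them and Notch at 2, and in IPCs RBPJ at 1 and Notch at 2. Its peak from 5006392 to 5008709 lay in an intron, 9.96 kb into the gene from the nearest start site. Every list except RGC Notch held it. Within this peak 1225 bp were common to the 3 lists. Both RGC Notch peaks of Arid1b coincided with RGC RBPJ peaks, at 128.1 kb upstream and 178.9 kb downstream of the nearest start site. The farthest Arid1b peak was an IPC Notch peak 632.4 kb upstream.

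Arid1a (ENSMUSG00000007880, chromosome 4 from 133679008 to 133756769), the paralogue that occupies the same position in the complex, had 4 peaks. The peak from 133727956 to 133730524, in an intron 27.5 kb from the 5′ end of the gene, was called in the same 3 lists as the intronic Arid1b peak, with 1379 bp common to all. An RGC Notch peak of 1113 bp from 133731599 to 133732711 lay closer to the 5′ end and did not overlap it. The only peak near the first start site of Arid1a was an IPC RBPJ peak of 796 bp, 277 bp upstream.

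Smarcd3, which encodes the BAF60C subunit, had 4 peaks, whereas Smarcd1 and Smarcd2 had 0. The Smarcd3 peak on chromosome 5 from 24595634 to 24597164 was held by both RGC lists and by the IPC Notch list. It covered internal start sites 28 kb downstream of the 5′ end, of transcripts annotated as retained introns. The 5′ end itself lay under an RGC RBPJ peak of 1489 bp. Of the paired ATPase genes, Smarca2 had 4 peaks and Smarca4 had 0, the nearest peak being 67.3 kb from a Smarca4 start site and assigned to Carm1. The 4 peaks of Smarca2 all lay upstream of the gene, 1 of them an IPC Notch peak 168 bp from a start site and the others 70.8, 264.2 and 438.8 kb away. The stretch nearest to the start sites was 690 kb for Smarca2 and 75.1 kb for Smarca4. The scaffold genes Smarcc1 and Smarcc2 had 1 RGC Notch peak each, of 3490 bp in an intron of Smarcc1 and of 1360 bp at 3.37 kb upstream of Smarcc2. Arid2, a subunit of the PBAF form, had 4 peaks at separate places, 2 of them RGC RBPJ peaks and 2 RGC Notch peaks. Smarce1 had 1 RGC RBPJ peak of 4129 bp that covered the 5′ end, and Smarcb1 had 0.

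The CHD helicase genes held the 2 genes with the most peaks and also a group with none. Chd7 (ENSMUSG00000041235, chromosome 4 from 8690406 to 8867659), which binds enhancers and is mutated in CHARGE syndrome, had 12 peaks in a stretch of 449.2 kb. The IPC RBPJ list called 7 of them and the RGC RBPJ list 6, with 1 RGC Notch and 2 IPC Notch peaks. Of the 12 peaks 6 lay in the gene, 5 beyond its 3′ end and 1 upstream. Cluster 3 held 6 of the 12 Chd7 peaks, and cluster 5 held 4. RBPJ was called in both cell types at 2 places, in an intron from 8796185 to 8802568 and downstream from 8909376 to 8914414. The RGC Notch peak of Chd7 lay with an RGC RBPJ peak 40.7 kb upstream, from 8647076 to 8649660.

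Chd2 (ENSMUSG00000078671, chromosome 7 from 73426638 to 73541830) had 10 peaks in 223.3 kb. The RGC RBPJ list called 8, the RGC Notch list 3, the IPC RBPJ list 2 and the IPC Notch list 0. A group of 4 RGC RBPJ peaks lay 65.3 to 91.1 kb upstream, and the farthest, from 73632974 to 73639939, shared 4579 bp with an RGC Notch peak. The peak of 7160 bp from 73418937 to 73426096, just beyond the 3′ end of the gene, was the longest RGC RBPJ peak near any of the 80 genes and contained an IPC RBPJ peak of 2363 bp. At the 5′ side an RGC Notch peak 7.03 kb upstream and another 5.15 kb downstream of a start site coincided with no RBPJ peak.

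**Figure D4:**
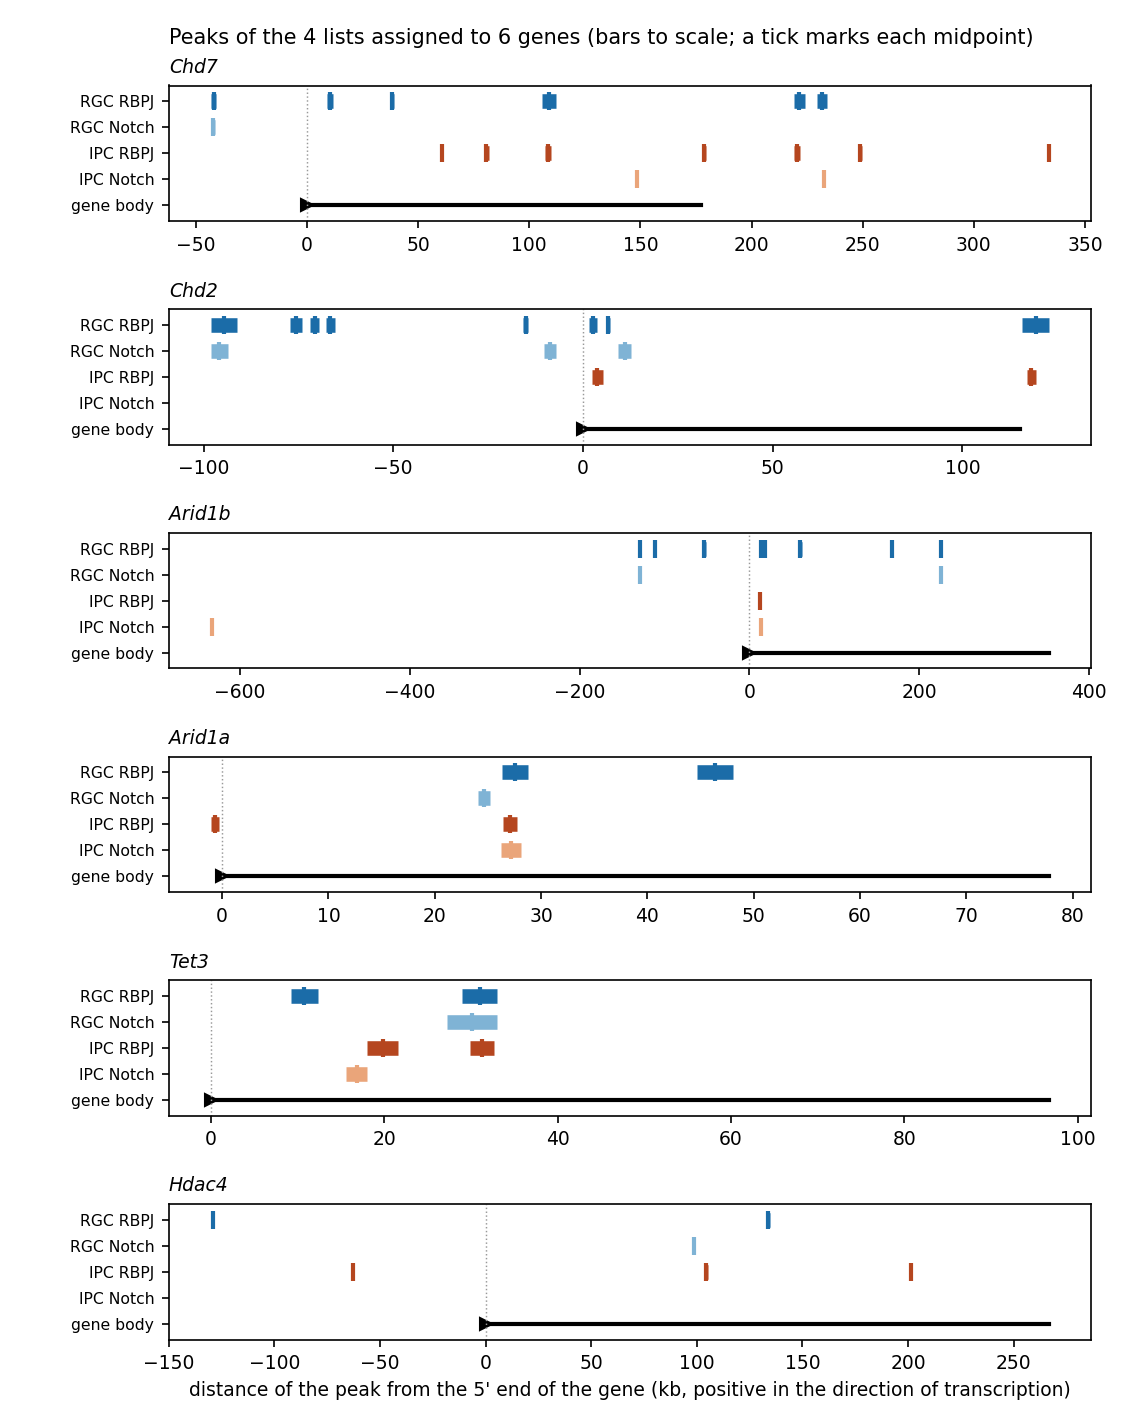
Peaks of the 4 lists (rows) assigned to Chd7, Chd2, Arid1b, Arid1a, Tet3 and Hdac4, against distance from the 5′ end of the gene (x axis, kb, positive in the direction of transcription). Bars are drawn to scale with a tick at the midpoint, and the black line is the gene. Chd7 peaks reach beyond the 3′ end in both cell types, whereas 4 RGC RBPJ peaks of Chd2 lie together more than 65 kb upstream.

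Of the other CHD genes, Chd9 had 3 peaks. Its 5′ end lay under an RGC RBPJ peak, and an IPC Notch peak of the same consensus peak began 0.225 kb downstream of it. Chd6 also had 3 peaks. Chd1 had 1 RGC RBPJ peak of 6028 bp over its 5′ end. Chd8 (ENSMUSG00000053754), an autism gene, had 1 RGC RBPJ peak of 633 bp over its 5′ end. The helicase genes of the NuRD deacetylase complex, Chd3, Chd4 and Chd5, had 0 peaks in 0.143 Mb of nearest sequence. The peak nearest to a Chd4 start site was an IPC RBPJ peak 32.4 kb away.

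The Kmt2 genes were grouped as H3K4 methyltransferases by symbol, not by the activity of each product. Of these, 4 of 5 had a peak, 13 peaks at 20.1 per Mb, against 39.7% and 7.74 per Mb over all genes. Kmt2c (ENSMUSG00000038056) had 5, and its peak on chromosome 5 from 25499101 to 25501529, 318 bp upstream of the first start site, was held by both RGC lists and the IPC RBPJ list. The 3 lists shared 885 bp there. Kmt2d (ENSMUSG00000048154) had 1 peak, from 98865803 to 98873609 on chromosome 15, which covered the 5′ end. Its 7807 bp were an RGC Notch peak, the longest in that list near the 80 genes, with an RGC RBPJ peak of 4942 bp inside it, and it held 14 TTCCCA words. The 3 peaks of Kmt2a were RGC RBPJ peaks within 2.78 kb of a start site that left the 5′ end uncovered. Kmt2e had 4 peaks, all upstream, of which the one at 19.6 kb was called for both proteins in IPCs and in neither RGC list. It was the only peak of the 80 genes called in exactly these 2 lists, a set of calls that 117 of all consensus peaks had. Kmt2b had 0 peaks in 22.5 kb. For the H4K20 methyltransferases, RGC RBPJ peaks were assigned to Kmt5b (2) and Kmt5c (1, over the 5′ end), and Kmt5a had 0. The PRC2 enzyme gene Ezh2 (ENSMUSG00000029687), which methylates histone H3 at lysine 27, had 1 RGC Notch peak of 1476 bp in an intron, 4.67 kb downstream of a start site, and Ezh1 had 0.

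Histone demethylase genes had a peak in 10 of 18 cases, against 39.7% of all protein-coding genes, with 20 peaks at 7.29 per Mb. This density was close to the 7.74 of all genes. RBPJ in RGCs was called at 18 of the 20 peaks, against 67.6% of all consensus peaks, and at each of the 10 genes. Over all protein-coding genes, 8720 had a peak and 6959 of these had an RGC RBPJ peak. Kdm2b, which recruits a Polycomb complex to CpG islands, had 4 peaks, 3 of them in cluster 5, and the peak of 6254 bp over its 5′ end was called for RBPJ in both cell types. Its paralogue Kdm2a had 3 peaks, with 2 RGC Notch peaks. Kdm8 had 4 RGC RBPJ peaks, but they lay 83.8, 105.6, 404.4 and 527.2 kb upstream of its start sites, so their link to the gene rests on distance alone. Kdm6b (ENSMUSG00000018476), which removes H3K27 methylation, had 1 peak of 4015 bp, 3.42 kb upstream, called for RBPJ in both cell types and holding 9 TTCCCA words. The Kdm1b peak covered the 5′ end of that gene and of the neighbouring Tpmt, and was the only peak assigned to 2 genes at once. Kdm1a, the LSD1 demethylase, had 0, with the nearest peak 86.3 kb from a start site. The 4 members of the Kdm5 family, which remove H3K4 methylation, had 0 as well. A peak 6.30 kb from a Kdm5a start site was assigned to Ccdc77, and for Kdm5b and Kdm5c the nearest peaks were 179.8 and 96.3 kb away. Kdm5d lies on the Y chromosome, which had 1 consensus peak in all. Of the other demethylases, Kdm4a had 1 RGC RBPJ peak over its 5′ end, Kdm4b 1 in a coding exon and Kdm6a 1 at 77.2 kb downstream of a start site. Kdm4c had 2 RGC RBPJ peaks beyond its 3′ end, 203.2 and 347.5 kb from a start site. Kdm7a had 2 RGC RBPJ peaks upstream, and the one at 17.8 kb was also called for Notch in IPCs. Kdm3a, Kdm3b and Kdm4d had 0.

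Of the class I deacetylase genes only Hdac2 had peaks, both for RGC Notch, 539 bp downstream and 97.6 kb upstream of a start site, and Hdac1, Hdac3 and Hdac8 had 0. An IPC RBPJ peak 7.77 kb from an Hdac1 start site was assigned to Marcksl1. Of the class IIa genes, whose products shuttle between nucleus and cytoplasm, 3 of 4 had peaks. Hdac4 (ENSMUSG00000026313) had 6, with 3 for IPC RBPJ, 2 for RGC RBPJ and 1 for RGC Notch, and no 2 lists called the same place. Hdac7 had 3 peaks. Hdac9 (ENSMUSG00000004698) had 2, 1 of which, on chromosome 12 from 34525225 to 34530588, was held by both IPC lists and by RGC Notch. This was the only peak of the 80 genes with that set of calls, a set that 17 of all consensus peaks had. It covered start sites of protein-coding transcripts 389.2 kb downstream of the 5′ end of Hdac9, and 1818 bp were common to the 3 lists. Hdac6 had 1 RGC RBPJ peak over its 5′ end, and Hdac5, Hdac10 and Hdac11 had 0.

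Of the DNA methyltransferase genes, Dnmt3a (ENSMUSG00000020661), a de novo methyltransferase, had 4 peaks, all in the gene. RBPJ in RGCs was called at 3 and Notch in RGCs at 1, a peak of 3487 bp over internal start sites 89.0 kb from the 5′ end. Dnmt3b had 1 RGC RBPJ peak. The maintenance methyltransferase gene Dnmt1 had 0, as did Dnmt3c and Dnmt3l. Neither IPC list had a peak near any of the 5 genes, which together had 0.296 Mb of nearest sequence. The background shares in IPCs were 16.4% of all protein-coding genes for RBPJ and 6.98% for Notch. A difference of these 5 genes from the background was not tested. All 3 Tet genes had peaks, 9 in all. Tet3 (ENSMUSG00000034832) had 4 peaks with midpoints 10.8 to 30.1 kb into the gene. Both RGC lists and the IPC RBPJ list held the one from 83426027 to 83431849 on chromosome 6, with 2754 bp common to them. An IPC RBPJ peak of 3587 bp and an IPC Notch peak of 2408 bp lay next to each other without overlap, the latter over internal start sites 16.8 kb from the 5′ end. Tet2 had 4 RGC RBPJ peaks and no others, 3 of them 54.6 to 330.4 kb upstream, and Tet1 had 1 RGC RBPJ peak of 835 bp in an intron.

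Of the remaining families, 2 of 5 ISWI and related helicase genes had a peak (Smarcad1 with 3 and Smarcal1 with 1), against 39.7% of all protein-coding genes. The density was 2.92 per Mb, against 7.74 over all genes, and of the 1.37 Mb of nearest sequence 792 kb belonged to Smarca1. Among the other Arid genes, Arid5b had 6 peaks, 5 of them for RBPJ in RGCs, Arid4a had 3, Arid3b had 2 and Arid5a had 1, whereas Arid3a, Arid3c and Arid4b had 0.

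The 33 genes without a peak had a median of 55.4 kb of nearest sequence, against 115.3 kb for the 47 genes with one. Their gene bodies were also shorter, with medians of 35.7 and 76.8 kb. Over all protein-coding genes the medians of nearest sequence were 31.0 kb without and 97.2 kb with a peak. The distance from their start sites to the nearest consensus peak had a median of 57.6 kb, and for 4 of them it was under 10 kb. Only Smarcb1 had a consensus peak inside its gene body, and that peak was nearer to Derl3. The 5 with the longest stretch were Smarca1 (792 kb), Hdac8 (196.3 kb), Arid4b (192.5 kb), Chd1l (124.9 kb) and Smarca5 (124.2 kb). Smarca1 and Smarca5 encode the ISWI ATPases.

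The 139 peaks were spread over the 4 lists much like all consensus peaks. RGC RBPJ called 97 of them (69.8%, interval 61.7 to 76.8, against 67.6% of all consensus peaks). RGC Notch called 25 (18% against 17.7%), IPC RBPJ 35 (25.2% against 26.2%) and IPC Notch 14 (10.1% against 10.1%). Peaks of 1 list alone made up 81.3% and peaks of 3 lists 4.32%, against 82.9% and 3.20% of all. Calls in all 4 lists were seen at 0 of 139 peaks, which by the same limit of 3 counts allows a share of up to 2.16%, against 0.678% of all peaks. By gene, 6 of 80 genes (7.5%) had a peak of 3 or more lists, against 2.97% of all protein-coding genes, and 0 of 80 had a peak of all 4 lists, against 0.593%. Both proteins were called at the same peak in 1 cell type at 12 genes (15%, interval 8.79 to 24.4; background 6.74%). By peak this was 14 of 139 (10.1%, interval 6.09 to 16.2), close to the 9.45% of all consensus peaks. Of the 25 RGC Notch peaks, 10 overlapped an RGC RBPJ peak (40%, interval 23.4 to 59.3), against 44% of the whole list. Of the 14 IPC Notch peaks, 4 overlapped an IPC RBPJ peak (28.6%, 11.7 to 54.6, against 22.5%). RBPJ peaks of RGCs overlapped an IPC RBPJ peak in 11 of 97 cases (11.3%, 6.45 to 19.2, against 10.1%). RGC Notch peaks overlapped an IPC Notch peak in 2 of 25 cases (8%, 2.22 to 25, against 13%). The whole-list share lay inside the interval in each of these comparisons. The same Dam-only controls stand behind both lists of a cell type, and their overlap is given only as a description.

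By cluster, the 139 peaks numbered 20, 9, 19, 11, 36, 17, 15 and 12 in clusters 1 to 8. The authors computed the clusters from binding intensities of the same 4 datasets, so the cluster of a peak and its list calls are not independent. Cluster 5, whose 36 peaks were all called for RBPJ in RGCs, held the largest share (25.9%, interval 19.3 to 33.8, against 22.5% of all peaks). Cluster 8 held 8.63% against 14.4%, and cluster 1 held 14.4% (9.51 to 21.2) against 10.5%. All but 1 of the 19 peaks of cluster 3 were IPC RBPJ peaks, and 6 of the 19 were near Chd7 and 3 near Hdac4. Clusters 2, 4, 6 and 7 together held 37.4% (29.8 to 45.7) of the peaks near the 80 genes and 36.3% of all. The share over all peaks lay inside the interval for each of the 8 clusters.

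**Figure D5:**
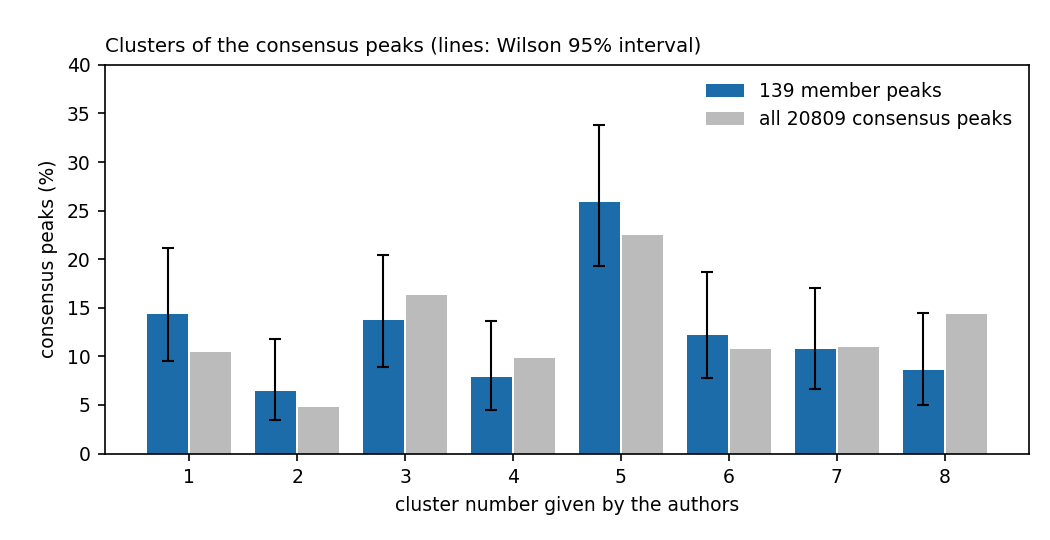
Share of consensus peaks (y axis, %) in each of the 8 k-means clusters (x axis) for the 139 peaks of the 80 genes (blue, with Wilson 95% intervals) and for all 20809 nuclear consensus peaks (grey). Every grey bar ends within the interval of the blue bar beside it.

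Peaks lay mostly away from promoters. A start site of the gene was covered by 24 of the 139 peaks (17.3%, interval 11.9 to 24.4, against 16.6% of all peaks), at 21 genes (26.2% of the 80, 17.9 to 36.8; background 16.0%). The 80 genes had a median of 7 annotated start sites, against 3 for all protein-coding genes. The part of this in the gene share and in distances to a start site was not tested. Only 11 of the 24 covered the outermost 5′ end of the gene (7.91% of 139, 4.48 to 13.6, against 11.5% of all peaks), at Chd1, Chd8, Chd9, Hdac6, Kdm1b, Kdm2b, Kdm4a, Kmt2d, Kmt5c, Smarcd3 and Smarce1. All 11 were called for RBPJ in RGCs, 2 for Notch in RGCs, 1 for RBPJ in IPCs and 1 for Notch in IPCs. The other 13 covered internal start sites, and at 3 of these no protein-coding transcript started. Of the 14 IPC Notch peaks 5 covered a start site (35.7%, 16.3 to 61.2, against 11.3% of the whole list), all at internal sites. The IPC Notch peak within the Chd9 consensus peak began 0.225 kb inside the gene. The midpoint lay in an intron for 46.0% of the 139 peaks and in intergenic sequence for 36.0%, against 47.3% and 38.7% of all peaks. Relative to the gene, 79 midpoints lay inside it, 50 before its 5′ end and 10 beyond its 3′ end. The median distance to the start site was 9.78 kb, against 21.1 kb for all peaks, and 21 peaks lay over 100 kb away. The median width was 2165 bp (quartiles 1372.5 and 3115.5), against 1890 bp.

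TTCCCA words, counted on both strands, were present in 83.5% of the 139 peaks (interval 76.4 to 88.7) and in 82.9% of all peaks. Their density was 1.08 per kb (364 words in 338.5 kb, Poisson interval 0.968 to 1.19) near the 80 genes and 1.17 per kb over all peaks. Tet3 and Kdm2b had 21 and 20 words in their 4 peaks each. In the RefSeq promoters of GRCm38.p6, which run from 250 bases before to 50 after the start, 61 of the 80 genes had an entry. The word occurred in 13 of their 86 promoters (15.1%, interval 9.05 to 24.2), against 25.6% of all 32851 promoters. Those belong to 27025 genes, a larger set than the 21938 protein-coding genes used elsewhere, and a part of base composition was not tested. The word occurred in 4 of 22 promoters of member genes with a peak over a start site and in 9 of 64 promoters of those without.

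GATC sites, which Dam methylates, bear on how these peaks can be read. No GATC site was found in 10 of the 139 peaks, and 8 of these 10 were called in the IPC RBPJ list alone. They made up 38.1% of its 21 such peaks (interval 20.8 to 59.1), against 46.6% over all genes. For peaks called only in the RGC RBPJ list the shares were 2.70% and 1.56%, and of the 26 peaks called in 2 or more lists 0 lacked a site. The IPC RBPJ peaks without a GATC site lay near Chd7 (2), Hdac4 (2), Chd6, Hdac7, Kmt2c and Smarca2. The part of this in the IPC RBPJ calls was not tested.

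Partners of these enzymes were counted by complex. Of 84 partner genes, 44 had a consensus peak (52.4%) and 39 an RGC RBPJ peak (46.4%), at 13.7 peaks per Mb. Over all protein-coding genes these values were 39.7%, 31.7% and 7.74 per Mb, against which the counts by complex are to be read. For other BAF subunits the count was 11 of 16, for NuRD subunits 5 of 7, for acetyltransferases 6 of 9, for Polycomb complex PRC1 8 of 16, for PRC2 4 of 9, for deacetylase corepressors 3 of 7, for other histone methyltransferases 5 of 11 and for the COMPASS group 2 of 9. The 5 NuRD genes with a peak were Gatad2a, Mbd2, Mbd3, Mta1 and Mta3. Rbbp4 and Rbbp7 were counted under PRC2 only. The density over the 7 NuRD partners was 4.5 peaks per Mb, below that of all genes, and 2 had an RGC RBPJ peak (28.6%). The 3 NuRD helicase genes had 0 peaks in 0.143 Mb of nearest sequence, and a difference from the partners was not tested. In the COMPASS group, which holds shared subunits and the methyltransferases Setd1a and Setd1b, peaks were assigned to Dpy30 and Setd1b only. Jarid2, a PRC2 subunit, had 11 peaks and was the only partner with more than 8. Kat6b, a histone acetyltransferase, had 8 peaks, 1 of which was called in all 4 lists.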

How the data were processed

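The authors trimmed reads and mapped them to mm10. Broad peaks came from MACS2, run on each fusion sample against each Dam-only sample, and only those passing an FDR limit in every such pair of a condition stayed in its list. The authors deposited 4 lists and a file of consensus peaks with cluster number and calls, all positions in bp, with 0 columns of single samples. These files hold no depth, replicate spread or peak height, other data of the series were not used here, no test was made, and intervals (Wilson 95%, or exact Poisson for word densities) cover counting error only. Peaks near 1 gene are not independent.

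Positions were used on GRCm38 with GENCODE vM21 and are counted from 1. The other 16 samples of the series were not analysed here. Mitochondrial peaks were left out, 2 of them consensus peaks. Each peak was assigned by its nearest edge to the closest start site of any transcript of a protein-coding gene, and to all genes at equal distance. Overlap was counted from 1 bp. Upstream features of peak midpoints and printed windows are the 5 kb before a start site, and elsewhere upstream gives a direction only. A count of 0 was given the limit of 3 counts. Versions were matplotlib 3.10.9, scipy 1.17.1, pandas 2.3.3 and numpy 2.4.6 under Python 3.11.15. Assignment, overlap and word counts were tested on simulated data and matched a direct search at 500 of 500 places each.

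The members and gene lists were chosen with earlier results of these data known. Named genes were, for every list, the 3 genes that had most peaks, the one with the most in each family, any with a peak of all 4 lists or a start site under a peak of 3 or more, genes listed for their known place in neural progenitors or at RBPJ, and the 5 without a peak that had the longest nearest sequence. Other genes are named to account for every member, and single peaks were singled out after their values were seen. Printed windows were limited to the stretch common to the lists that called the peak. The alternatives are in the closing section.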

Additional observations from a re-analysis of the deposited data

How the results depend on the processing

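Of 65 alternatives tried, 59 left counts within 1.5 times, or shares and word densities within the interval, of the value reported. With start sites of all annotated genes, non-coding ones included, the consensus peaks of the 80 genes fell to 80 and the genes with an RGC Notch peak to 12, because peaks nearer to another annotated start were no longer counted. Genes with any peak fell from 47 to 40 and genes with an RGC RBPJ peak from 43 to 33, inside the limit of 1.5 times. No background share of all genes is given for the alternative gene counts, so the difference from the background was not examined there. Counted within 1000 bp of a start site, 29.5% of peaks lay at one, against 21.8% of all peaks. The 80 genes had a median of 7 annotated start sites, against 3 for all genes, and the part of this was not tested. Clusters 2, 4, 6 and 7 held 37.4% of peaks, but both proteins were called in a cell type at 10.1% (all peaks: 36.3% and 9.45%). Word density was 0.242 per kb for TTCCCAC and 1.24 for TTCCCA in the central 500 bp (all peaks: 0.27 and 1.18). Leaving out peaks without a GATC site, and assigning 1 gene per peak, were added after seeing the data and gave 47 and 46 genes with a peak.

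No paired analysis was possible because the files hold pooled peak lists and no value of a single sample. For the same reason no replicate was left out. Peaks of Kdm8 and Smarca2 lay up to 527.2 and 438.8 kb away, and nearness does not show regulation.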
